A study of Rattus norvegicus with 9 samples.

Results

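Tetrahydrobiopterin and nitric oxide synthesis was followed here through 8 genes of the rat dorsal root ganglion (DRG), chosen by their symbols: Gch1, Gchfr, Pts, Spr, Qdpr, Nos1, Nos2 and Nos3. All 8 were found among the 20194 genes of the expression table. Of these, 7 passed the filter on low values, which asked for an FPKM (fragments scaled for gene length and for mapped fragments in the library) of at least 1 in at least 1 library. Nos2 stayed below it, and its tests come from a wider fit that took in every gene with a count.

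Tetrahydrobiopterin is the cofactor of the nitric oxide synthases and of the enzymes that open the synthesis of monoamines such as serotonin and dopamine. It is made from GTP in steps carried out by GTP cyclohydrolase (Gch1), 6-pyruvoyltetrahydropterin synthase (Pts) and sepiapterin reductase (Spr), and it is regenerated after use by dihydropteridine reductase (Qdpr). In injured sensory neurons the cofactor is known for its rise after nerve damage and for its link with neuropathic pain, and nitric oxide is a messenger that acts largely through cyclic GMP.

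The libraries came from male Sprague Dawley rats. Spared nerve injury (SNI), in which the tibial and common peroneal nerves are cut and the sural nerve is left, was compared with sham surgery, and a group with SNI received G15, an antagonist of the G protein-coupled oestrogen receptor. Each of the 3 groups (sham, SNI and SNI + G15) held 3 RNA-Seq libraries of DRG tissue, and the libraries held between 18484557 and 18756736 estimated reads. The labels place an intrathecal catheter at day 5 of SNI, with drug in 2% DMSO given over 24 h, and repeat this for all samples, so whether sham and SNI rats carried a catheter with vehicle is not stated. The methods of the study give another DMSO percentage. The sample titles mark the sham and SNI libraries as controls for G15.

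Some descriptions of the samples contradict each other. The extraction text of the labels speaks of macrophages exposed to exosomes, whereas source and tissue are DRG. The labels name mouse builds (GRCm38 and mm10) for these rat samples. The supplement to the study lists more rats for RNA-Seq than there are libraries, and pooling is not stated. The tissue and the injury were therefore checked on their defining genes. Sensory neuron genes were abundant in every library, with Prph at 1310 to 1783 FPKM and Scn10a at 62.7 to 112 FPKM. The injury genes separated the groups, with Atf3 at 3.61 to 4.30 FPKM in sham libraries. Its level reached 138 to 143 FPKM after SNI and 132 to 140 FPKM with G15. Gper1, the receptor of G15, was listed between 0.43 and 0.85 FPKM and its groups overlapped.

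After SNI, Gch1, Spr, Pts and Qdpr rose, with the largest fold change for Gch1 and the next for Spr, whereas Gchfr, which encodes the feedback inhibitor of Gch1, was lower. The neuronal synthase Nos1 and the scarce inducible synthase Nos2 were also higher. With SNI alone as the reference, none of the 7 genes past the filter passed the adjusted threshold in SNI + G15. Of those 7, edgeR's quasi-likelihood test called 6 in SNI against sham (5 higher, 1 lower), where 45.7% of all 14305 genes tested were called (23.3% higher, 22.4% lower). For SNI + G15 against sham it called 6 of 7, all higher, where 43.2% of all genes were called (21.4% higher, 21.9% lower). Between the injured groups it called 0 of 7, where 15.2% of all genes were called (7.98% higher, 7.25% lower). There 1 of the 7, Gchfr, had an unadjusted p under 0.05 by edgeR, and DESeq2 called 0 and limma-trend 1. The groups did not overlap for 7 of 7 genes in SNI against sham, for 6 of 7 in SNI + G15 against sham and for 1 of 7 in SNI + G15 against SNI, and over all genes tested the shares were 53.9%, 52.9% and 38.3%.

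The median log2 fold change of the 7 genes was 0.43 for SNI against sham, 0.47 for SNI + G15 against sham and 0.07 for SNI + G15 against SNI. Over all genes the medians were 0.0010, -0.0037 and 0.0063. The 3 comparisons share libraries (each group enters a pair of them), so their values are set side by side below and were not correlated. In bulk tissue, fewer cells of a type and less RNA per cell cannot be told apart.

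**Figure D1:**
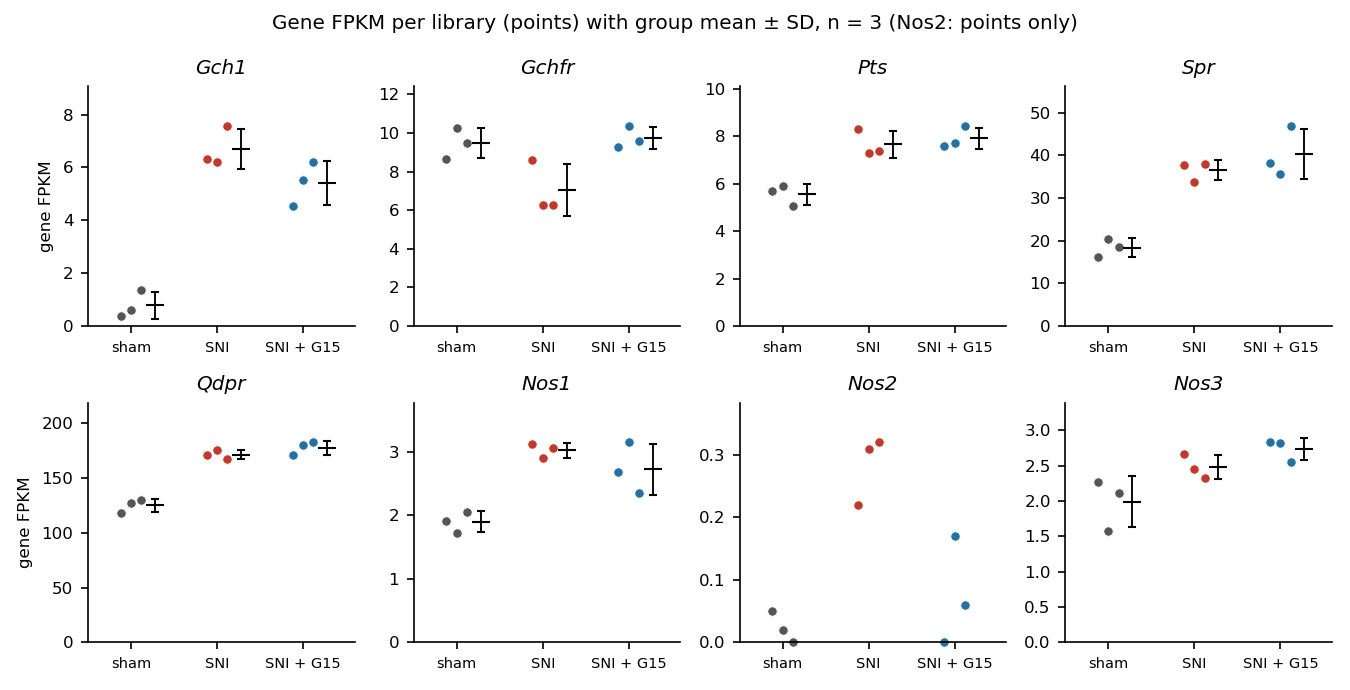
Gene FPKM (vertical axes, starting at 0) of the 8 genes by group, with 1 point per library and the group mean ± SD (n = 3) beside it for all but Nos2. Gch1, Spr, Qdpr, Pts and Nos1 lie higher in all SNI libraries than in all sham libraries, and Gchfr lies lower.

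Gch1, the enzyme that sets the rate of cofactor synthesis, had the largest fold change of the 7 genes past the filter. It was listed at 0.38, 0.59 and 1.35 FPKM in the sham libraries, at 6.31, 6.19 and 7.57 FPKM in the SNI libraries, and at 4.54, 5.53 and 6.19 FPKM in the SNI + G15 libraries. Every injured library was above every sham library, and the range of SNI + G15 ended at the lowest SNI value. These levels rest on few reads, with 7, 11 and 25 estimated counts in sham against 115 to 140 in SNI.

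The mean of Gch1 was 0.77 ± 0.51 FPKM in sham, 6.69 ± 0.76 in SNI and 5.42 ± 0.83 in SNI + G15 (SD, n = 3). In SNI against sham the log2 fold change was 3.07 (SE 0.31, edgeR adjusted p = 1.68e-05), an 8.41-fold rise. Sham replicate 3 held the highest sham level, and without it the log2 fold change was 3.74. Without sham replicate 1, the lowest, it was 2.75. Against sham the SNI + G15 group gave 2.76 (SE 0.34, edgeR adjusted p = 0.000125), with 3.43 without sham replicate 3 and 2.43 without sham replicate 1. Against SNI the SNI + G15 group gave -0.29 (SE 0.15, edgeR adjusted p = 0.207), which missed the threshold.

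The promoter windows of Gch1, Gchfr and Nos1 are shown. Gch1 had the largest rise of the genes past the filter, and Gchfr, for its inhibitor, had the opposite direction. Nos1 had the single window that held both AP-1 and CRE letters. Each window spans 250 bases before to 50 bases after the start of the gene as RefSeq places it in the rat build GRCr8. Of the 8 genes 7 had one, and Nos2 did not. Motif letters were searched on both strands, and each match stands in capitals. The AP-1 motif was searched as TGACTCA. The cyclic AMP response element (CRE) was searched as TGACGTCA. The TATA box was searched as TATAAA. The GC box was searched as GGGCGG, and the reverse complement of each was included.
Gch1 promoter, chr15:22917363-22917662, minus strand: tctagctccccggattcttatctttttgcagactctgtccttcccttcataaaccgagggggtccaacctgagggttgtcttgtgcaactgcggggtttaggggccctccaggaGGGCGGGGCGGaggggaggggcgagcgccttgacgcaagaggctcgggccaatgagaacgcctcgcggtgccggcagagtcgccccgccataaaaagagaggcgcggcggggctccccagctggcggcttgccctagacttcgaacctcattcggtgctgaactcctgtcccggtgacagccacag
Gchfr promoter, chr3:126611642-126611941, plus strand: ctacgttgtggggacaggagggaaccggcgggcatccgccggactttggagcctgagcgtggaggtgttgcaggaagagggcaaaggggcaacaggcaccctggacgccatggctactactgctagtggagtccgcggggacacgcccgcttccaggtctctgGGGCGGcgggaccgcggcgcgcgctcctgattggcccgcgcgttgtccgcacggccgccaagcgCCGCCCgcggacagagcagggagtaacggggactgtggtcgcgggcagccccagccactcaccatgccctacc
Nos1 promoter, chr12:44371788-44372087, minus strand: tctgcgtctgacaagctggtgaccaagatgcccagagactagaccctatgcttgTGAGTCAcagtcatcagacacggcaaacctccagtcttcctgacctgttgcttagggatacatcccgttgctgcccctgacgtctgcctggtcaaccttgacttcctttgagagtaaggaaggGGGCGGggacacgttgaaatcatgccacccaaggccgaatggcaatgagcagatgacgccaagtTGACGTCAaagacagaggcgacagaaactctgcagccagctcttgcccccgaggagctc

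The Gch1 window held 2 overlapping GC boxes, and the Gchfr window held 2, 1 on each strand. The Nos1 window held an AP-1 match, a CRE match and a GC box. Spr had 2 GC boxes, Qdpr 4 and Nos3 1, and Pts had none of the motifs. Over all 33469 promoter windows of this length, 33.1% held a GC box, 4.63% the AP-1 letters, 1.83% the CRE letters and 14.2% the TATA box letters. GC content was 63.3% for Gch1, 70.0% for Gchfr and 55.3% for Nos1, against a median of 51.7% over all windows. A match is a description of the letters and not a measured site.

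Gchfr encodes the GTP cyclohydrolase feedback regulatory protein, which lets tetrahydrobiopterin inhibit Gch1 and phenylalanine stimulate it. It was listed at 8.67, 10.27 and 9.49 FPKM in sham, at 8.62, 6.29 and 6.24 FPKM in SNI, and at 9.27, 10.36 and 9.58 FPKM in SNI + G15. Sham and SNI were separated only by the small gap between 8.62 and 8.67 FPKM, while every SNI + G15 library was above every SNI library. The counts behind these levels were 70 to 97 in SNI and 97 to 116 in sham.

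In SNI against sham Gchfr fell by 0.46 on the log2 scale (SE 0.15, edgeR adjusted p = 0.0331). This call was lost with DESeq2 (adjusted p = 0.0735) and in the fit with a replicate block (adjusted p = 0.0530). It was also lost without sham replicate 2 (adjusted p = 0.1004), sham replicate 3 (0.0738), SNI replicate 2 (0.107) or SNI replicate 3 (0.104). Its adjusted p lay between 0.00808 and 0.107 under the alternatives tried. For SNI + G15 against SNI the log2 fold change was 0.48 (SE 0.15, edgeR adjusted p = 0.0667), which missed the threshold. It passed with limma-trend on log2(FPKM + 1) (adjusted p = 0.0436), with all 9 libraries in the fit (0.0421) and without SNI replicate 1 (0.0305), with a range over all alternatives of 0.0305 to 0.202. SNI + G15 and sham overlapped, and their log2 fold change was -0.00037 (SE 0.12, edgeR adjusted p = 0.999), a value near 0 whose sign changed with the scaling.

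The ratio of Gch1 to Gchfr within a library compares the enzyme with its inhibitor per length of gene. It was 0.0438, 0.0574 and 0.142 in sham, 0.732, 0.984 and 1.21 in SNI, and 0.490, 0.534 and 0.646 in SNI + G15. The 3 groups did not overlap, with SNI highest, SNI + G15 next and sham lowest. The mean log2 ratio differed by 3.75 between SNI and sham and by 2.96 between SNI + G15 and sham. It differed by -0.79 for SNI + G15 minus SNI. The two-sided exact permutation test over libraries gave p = 0.1 in each comparison, the smallest that 3 against 3 libraries allow.

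**Figure D2:**
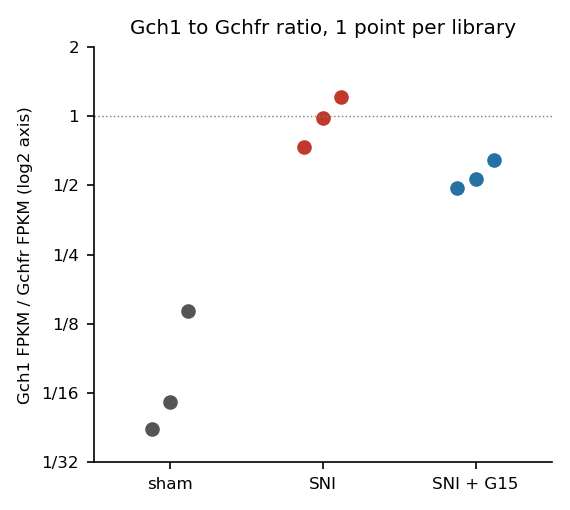
Ratio of Gch1 FPKM to Gchfr FPKM on a log2 axis, with 1 point per library by group and a dotted line at equal levels. Sham lies between 0.0438 and 0.142, SNI + G15 between 0.490 and 0.646, and SNI between 0.732 and 1.21.

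Pts carries out the step after Gch1. Its 3 libraries held 5.71, 5.91 and 5.05 FPKM in sham, 8.31, 7.31 and 7.38 FPKM in SNI, and 7.59, 7.71 and 8.44 FPKM in SNI + G15, and both injured groups lay above sham. The log2 fold change was 0.43 (SE 0.10, edgeR adjusted p = 0.00569) for SNI and 0.47 (SE 0.10, edgeR adjusted p = 0.00476) for SNI + G15, each against sham. With SNI as the reference, SNI + G15 gave 0.06 (SE 0.09, edgeR adjusted p = 0.662), and the groups overlapped.

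Spr, whose product completes the cofactor, had 16.05, 20.44 and 18.56 FPKM in sham. It had 37.79, 33.83 and 37.91 FPKM in SNI and 38.19, 35.72 and 46.90 FPKM in SNI + G15. The lowest injured library was well above the highest sham library, and the 2 injured groups overlapped. The rise was 1.95-fold in SNI against sham (log2 fold change 0.96, SE 0.08, edgeR adjusted p = 6.36e-06) and 2.14-fold in SNI + G15 against sham (log2 fold change 1.10, SE 0.12, edgeR adjusted p = 5.99e-05). Between SNI + G15 and SNI the log2 fold change was 0.16 (SE 0.10, edgeR adjusted p = 0.324).

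Qdpr, the recycling enzyme, was the most abundant of the 8 genes in every library. Its level was 118.1, 127.2 and 130.0 FPKM in sham, 171.2, 175.7 and 167.6 FPKM in SNI, and 170.8, 180.1 and 182.6 FPKM in SNI + G15. The injured libraries were closely grouped and all above sham. The log2 fold change was 0.43 (SE 0.04, edgeR adjusted p = 2.41e-05) in SNI against sham, 0.47 (SE 0.06, edgeR adjusted p = 0.000137) in SNI + G15 against sham and 0.07 (SE 0.04, edgeR adjusted p = 0.337) in SNI + G15 against SNI.

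Per length of gene, the order of the 8 genes in sham was Qdpr, Spr, Gchfr, Pts, Nos3, Nos1, Gch1 and Nos2, and the ranges of Nos3 and Nos1 overlapped. In SNI the order was Qdpr, Spr, Pts, Gchfr, Gch1, Nos1, Nos3 and Nos2. There the range of Gchfr overlapped those of Pts and Gch1. Gch1 thus stood at 0.77 FPKM against 9.48 for Gchfr in sham and at 6.69 against 7.05 in SNI. In SNI + G15 the order was Qdpr, Spr, Gchfr, Pts, Gch1, Nos3, Nos1 and Nos2, and again Nos3 and Nos1 overlapped.

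Nos1, the neuronal nitric oxide synthase, was listed at 1.91, 1.73 and 2.06 FPKM in sham, at 3.13, 2.90 and 3.06 FPKM in SNI, and at 2.68, 3.15 and 2.35 FPKM in SNI + G15. All injured libraries exceeded all sham libraries, and the SNI + G15 libraries were spread over more than the SNI range. In SNI against sham the log2 fold change was 0.63 (SE 0.08, edgeR adjusted p = 6.98e-05). It was 0.48 (SE 0.11, edgeR adjusted p = 0.00640) for SNI + G15 against sham, and for SNI + G15 against SNI it was -0.13 (SE 0.10, edgeR adjusted p = 0.393). Its window, printed above, was the one with AP-1 and CRE letters. In the RefSeq table Nos1 overlaps 2 long non-coding RNAs that are not among the genes of the expression table, and whether reads were counted by strand is not given in the sources used here.

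Nos2, the inducible synthase of activated immune cells, was close to the limit of detection. Its estimated counts were 3, 1 and 0 in sham, 14.5, 20.5 and 21.4 in SNI, and 0, 10.98 and 4.33 in SNI + G15, where a count of 0 allows up to 3. These correspond to 0.05, 0.02 and 0 FPKM in sham, 0.22, 0.31 and 0.32 in SNI, and 0, 0.17 and 0.06 in SNI + G15. The SNI libraries were above all others, and SNI + G15 overlapped sham. In the RefSeq table Nos2 also overlaps a long non-coding RNA that is not among the genes of the expression table.

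Summed over libraries, Nos2 had 56 counts in SNI against 4 in sham, a ratio per read of 14.0 with an exact 95% interval of 5.17 to 53.2 for counting error only. SNI + G15 had 15 counts, a ratio to SNI of 0.268 (0.141 to 0.480) and to sham of 3.75 (1.19 to 15.5). In the fit of all genes with a count, where 34.0% of genes were called, the log2 fold change in SNI against sham was 3.68 (SE 0.58, edgeR adjusted p = 0.000497). It was 4.90 without sham replicate 1 and 3.14 without sham replicate 3. With SNI as the reference, SNI + G15 gave -1.88 (SE 0.64, edgeR adjusted p = 0.0987), which missed the threshold with 9.63% of genes called. It passed without SNI + G15 replicate 2 (log2 fold change -3.16, adjusted p = 0.0486), the lowest of an adjusted p that ran up to 0.279 over the alternatives. Against sham the SNI + G15 group gave 1.77 (SE 1.151, edgeR adjusted p = 0.286), with 32.5% of genes called. That value was 2.998 without sham replicate 1 and 0.50 without SNI + G15 replicate 2, and neither was called.

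Nos3, the endothelial synthase, was listed at 2.27, 1.58 and 2.12 FPKM in sham, at 2.67, 2.45 and 2.33 FPKM in SNI, and at 2.83, 2.82 and 2.56 FPKM in SNI + G15. The sham libraries lay below both injured groups, which overlapped each other. In SNI against sham the log2 fold change of 0.29 missed the threshold (SE 0.12, edgeR adjusted p = 0.0765), and it passed without sham replicate 1 (adjusted p = 0.0387, in a range of 0.0387 to 0.233 over the alternatives). Against sham, Nos3 rose with SNI + G15 by 0.44 on the log2 scale (SE 0.12, edgeR adjusted p = 0.0149). The value was 0.18 (SE 0.08, edgeR adjusted p = 0.169) for SNI + G15 against SNI.

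Over the 10 endothelial marker genes, the summed level was 78.2 to 84.4 FPKM in sham and 82.3 to 84.2 FPKM in SNI. It was 100.3 to 109 FPKM in SNI + G15. Of these 10, 6 were called higher and 1 lower in SNI + G15 against sham, beside 21.4% and 21.9% of all genes. None of the 10 was at 0 in any library. Their part in the Nos3 result was not tested. The neighbouring gene Atg9b, which overlaps Nos3, was listed between 0.05 and 0.12 FPKM.

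**Figure D3:**
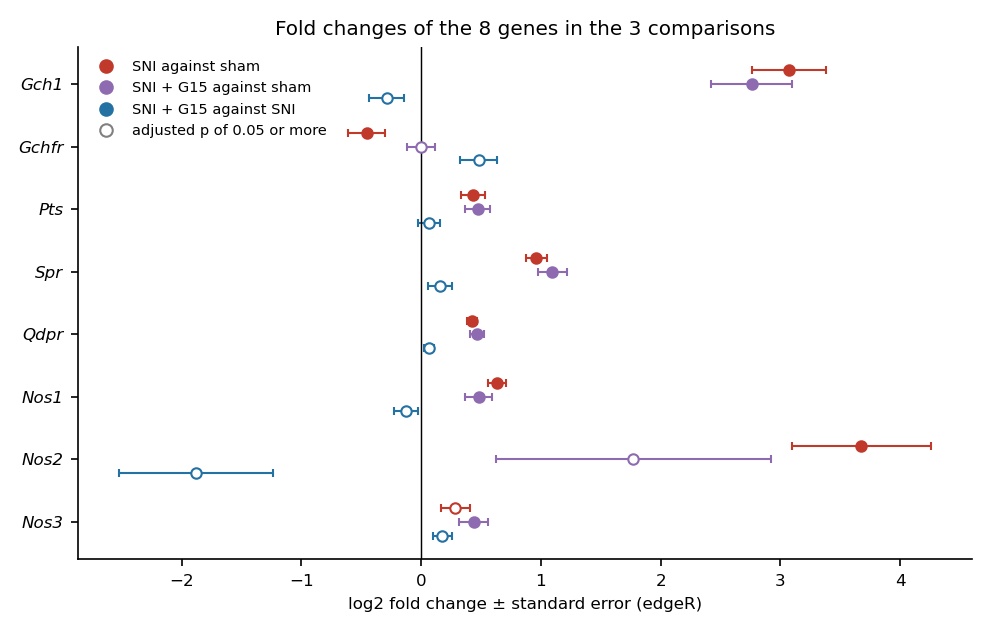
Log2 fold change ± standard error (edgeR) of the 8 genes in SNI against sham, SNI + G15 against sham and SNI + G15 against SNI, with open points for an adjusted p of 0.05 or more. The points of SNI + G15 against SNI are all open, the furthest from 0 being -1.88 for Nos2, while Gch1 stands at 3.07 and 2.76 against sham.

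At the level of transcripts, 6 of the 8 genes had a single one in the table, and 8 transcripts of the 8 genes passed the filter. For SNI against sham 4 of them were called by edgeR, all higher (10.3% of 25998 transcripts were called, 5.58% higher), namely those of Gch1, Spr, Qdpr and Nos1. For SNI + G15 against sham 3 were called (10.4%), those of Gch1, Spr and Qdpr, and for SNI + G15 against SNI 0 were called by edgeR (0.662%), with 1 at an unadjusted p under 0.05 and 1 called by DESeq2. One Nos1 model transcript held 96.8% of the gene's FPKM in sham, 97.5% in SNI and 98.5% in SNI + G15.

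Nos3 was divided between a curated and a model transcript. The model transcript held 62.8% of the summed FPKM in sham, 55.6% in SNI and 86.0% in SNI + G15. The curated transcript was listed at 0 in 1 sham library and in 1 SNI + G15 library, and edgeR called neither Nos3 transcript in any comparison. The model transcript was the one that DESeq2 called in SNI + G15 against SNI.

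The other genes of the pathway were taken from a list of 36, of which 34 passed the filter. In SNI against sham 15 of the 34 were called by edgeR, 5 higher and 10 lower, beside 45.7% of all genes. The lower genes include Th and Gucy1a1, which passed the filter only through sham libraries. The median log2 fold change of the list was -0.035. For SNI + G15 against sham 17 were called (8 higher, 9 lower), beside 43.2% of all genes (21.4% higher, 21.9% lower). Between the injured groups 6 were called, 3 in each direction, beside 15.2% of all genes. That count was 2 without SNI replicate 1, 3 without SNI replicate 2 and 2 without SNI replicate 3. Over all 14305 genes, 1098, 925 and 893 were called in these fits, where 2179 were called with no library left out.

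Among the genes of cofactor salvage and recycling, 2 of 5 were called in SNI against sham, beside 45.7% of all genes. Akr1b1, an aldose reductase of the salvage route and the most abundant of these genes, fell by 0.71 on the log2 scale (SE 0.05, edgeR adjusted p = 1.80e-06), from 135 to 84.2 FPKM. It did not pass the test in SNI + G15 against SNI.

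Among the enzymes that use the cofactor in monoamine synthesis, 2 of the 4 tested were called in SNI against sham, beside 45.7% of all genes. They went in opposite directions. Tph2, a tryptophan hydroxylase of serotonin synthesis, was at 3.67 to 4.57 FPKM in sham, 16.6 to 17.9 FPKM in SNI and 12.8 to 14.5 FPKM in SNI + G15. The 3 groups did not overlap. Its log2 fold change was 2.04 (SE 0.07, edgeR adjusted p = 7.64e-09) in SNI against sham and -0.32 (SE 0.06, edgeR adjusted p = 0.00916) in SNI + G15 against SNI. Th, the tyrosine hydroxylase of catecholamine synthesis, fell by 1.18 on the log2 scale in SNI against sham (SE 0.25, edgeR adjusted p = 0.00339), from 1.16 to 1.46 FPKM down to 0.49 to 0.77 FPKM. Th passed the filter only through sham libraries, the group where it was high.

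Genes of arginine handling set the supply of the nitric oxide synthases' substrate. Arg1, an arginase that competes for arginine, was at 0.75 to 1 FPKM in sham, 10.8 to 11.6 FPKM in SNI and 8.35 to 9.69 FPKM in SNI + G15. The log2 fold change was 3.67 (SE 0.11, edgeR adjusted p = 2.43e-09) in SNI against sham and -0.29 (SE 0.07, edgeR adjusted p = 0.0271) in SNI + G15 against SNI. Ass1, the argininosuccinate synthase that rebuilds arginine from citrulline, fell by 1.05 on the log2 scale in SNI against sham (SE 0.05, edgeR adjusted p = 4.48e-08), from 70.4 to 34.9 FPKM. Ddah2, a hydrolase that removes methylarginine inhibitors of the synthases and the most abundant gene of this role in both injured groups, was called in SNI + G15 against SNI at a log2 fold change of 0.23 (SE 0.06, edgeR adjusted p = 0.0436).

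Among the 10 genes of the nitric oxide receptor, cyclic GMP signalling and removal, 5 were lower and 1 higher in SNI against sham, beside 22.4% and 23.3% of all genes. Gucy1a1, a subunit of soluble guanylate cyclase, fell by 0.66 on the log2 scale (SE 0.13, edgeR adjusted p = 0.00177), and the kinase Prkg2 fell by 0.52 (SE 0.14, edgeR adjusted p = 0.0117). Gucy1a1 was at 1.10 to 1.31 FPKM in sham and 0.78 to 0.85 FPKM in SNI, and it passed the filter only through sham libraries. Prkg1 was not called after SNI alone, and with G15 it fell by 0.34 on the log2 scale against SNI (SE 0.08, edgeR adjusted p = 0.0198). Vasp, a substrate of these kinases and the most abundant gene of this role in both injured groups, had a log2 fold change of 0.07 (SE 0.06, edgeR adjusted p = 0.317) in SNI against sham. Pde5a, a phosphodiesterase that breaks down cyclic GMP, was at 1.97 to 2.57 FPKM in sham, 1.65 to 1.70 FPKM in SNI and 2.24 to 2.43 FPKM in SNI + G15. It fell by 0.46 on the log2 scale in SNI against sham (SE 0.09, edgeR adjusted p = 0.00267), and the log2 fold change was 0.48 (SE 0.06, edgeR adjusted p = 0.00198) in SNI + G15 against SNI.

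Of the 7 partners of the synthases, 2 were called in SNI against sham, both lower, beside 45.7% of all genes called and 22.4% lower. They were Cav1, a membrane protein that binds Nos3, and Dlg4, a scaffold that binds Nos1. Hsp90aa1, the chaperone with the highest level of this role, had a log2 fold change of 0.03 (SE 0.04, edgeR adjusted p = 0.536). Dynll1, a dynein light chain that binds Nos1, was called in SNI + G15 against SNI at 0.24 (SE 0.05, edgeR adjusted p = 0.0197).

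**Figure D4:**
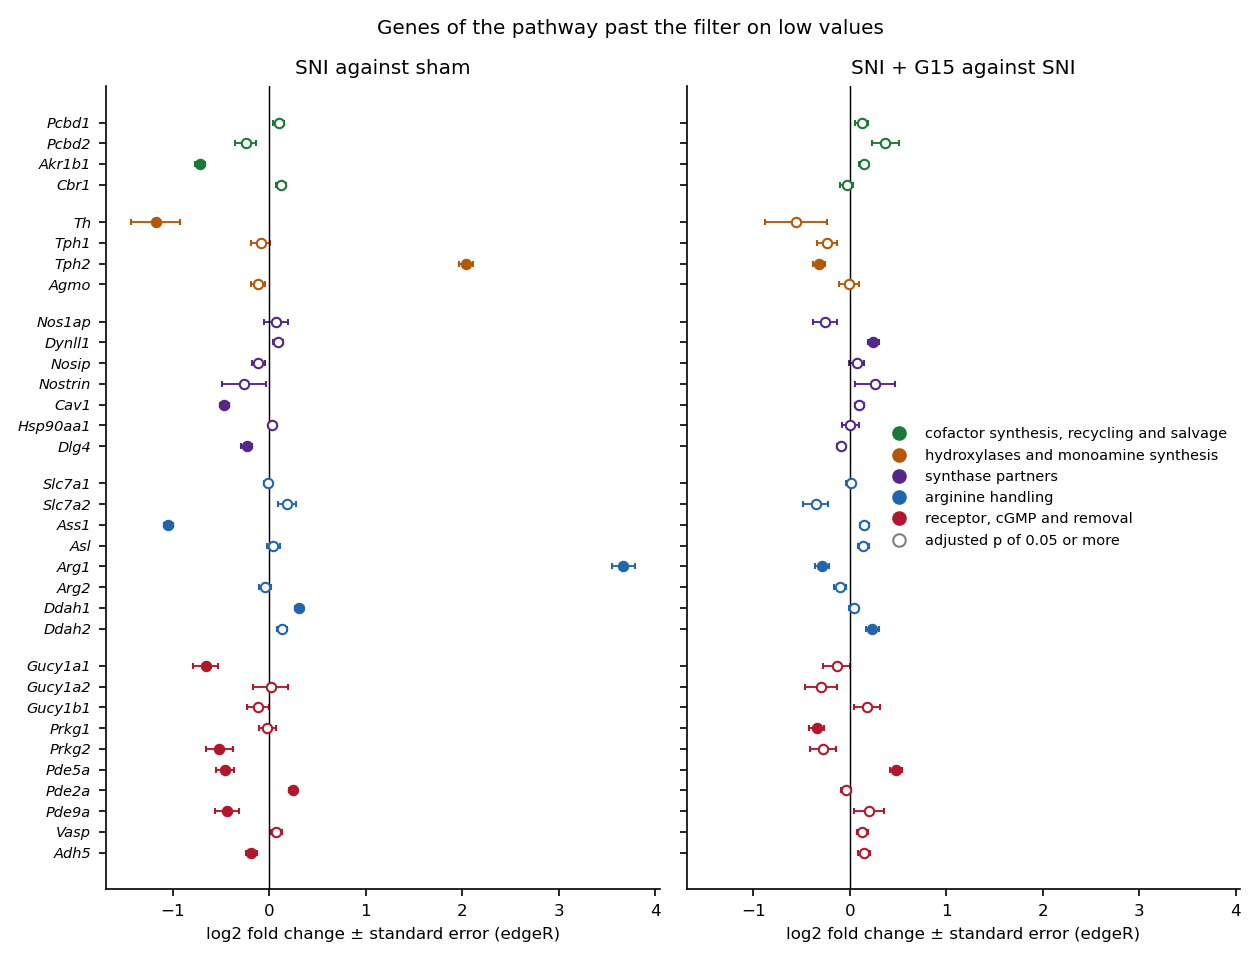
Log2 fold change ± standard error (edgeR) of other pathway genes that passed the filter, in SNI against sham (left) and SNI + G15 against SNI (right), coloured by role, with open points for an adjusted p of 0.05 or more. Arg1 (3.67) and Tph2 (2.04) lie furthest to the right after injury, and Th (-1.18) and Ass1 (-1.05) furthest to the left.

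Markers of neurons and of other cells moved with the injury as well. The 8 neuron markers summed to 7948 to 8241 FPKM in sham libraries, 8608 to 8837 FPKM after SNI, and 8872 to 9238 FPKM with G15. Of these 8, 4 were called lower and 2 higher for SNI against sham. The summed level of the 7 macrophage markers ranged from 83.5 to 91.7 FPKM in sham libraries, from 189 to 208 FPKM after SNI, and from 207 to 222 FPKM with G15, with 6 of 7 called higher for SNI against sham. The 4 neutrophil markers summed to 119 to 143 FPKM in sham libraries, 187 to 221 FPKM after SNI, and 197 to 240 FPKM with G15, with 3 of 4 called higher for SNI against sham. The 6 Schwann cell markers summed to 5154 to 5266 FPKM in sham libraries, 2849 to 2907 FPKM after SNI, and 3072 to 3194 FPKM with G15, with 5 of 6 called lower for SNI against sham. The 4 erythroid markers summed to 251 to 291 FPKM in sham libraries, 847 to 900.0 FPKM after SNI, and 519 to 580.0 FPKM with G15, with 4 of 4 called higher for SNI against sham and 4 of 4 lower for SNI + G15 against SNI. Over all genes, 23.3% were called higher and 22.4% lower for SNI against sham, and 7.25% lower for SNI + G15 against SNI. None of these marker genes was at 0. Their part in the changes of Gch1, Spr, Pts, Qdpr, Nos1, Nos2 and Arg1 was not tested.

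Between the injured groups, 5 of 5 fibroblast markers were called higher in SNI + G15, beside 7.98% of all genes. Their sums were 382 to 384 FPKM in SNI and 516 to 539 FPKM in SNI + G15. Of 5 markers of smooth muscle and pericytes, 4 were called higher, beside the same 7.98% of all genes. Their sums were 62.9 to 69.7 FPKM in SNI and 88.6 to 94.6 FPKM in SNI + G15. Of the 2 mesothelial markers Msln was called higher, at a log2 fold change of 4.12, Upk3b was at or near 0 and not tested, and their sum was 0.08 to 0.18 FPKM in SNI and 1.52 to 2.26 FPKM in SNI + G15. Msln passed the filter only through SNI + G15 libraries, the group where it was high. The part of these markers and of the erythroid markers in the changes of Tph2, Arg1, Ddah2, Prkg1, Pde5a and Dynll1 was not tested.

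The genes whose pattern over the 9 libraries was most like that of each called gene were ranked by Pearson's r of log2(CPM + 0.5), as a description in which all points share the 3 groups. For Gch1 these were the class II histocompatibility gene RT1-Db1 (r = 0.990), Crmp1 (r = 0.989) and Esyt1 (r = 0.987). For Spr they were Nek6 (r = 0.994), Sfn (r = 0.990) and Fgd2 (r = 0.989), and for Pts they were Btg3 (r = 0.986), the myeloid transcription factor Spi1 (r = 0.985) and Slc11a1 (r = 0.980).

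Qdpr was nearest to the mitochondrial translocator gene Tspo (r = 0.993), Trpv2 (r = 0.993) and Ypel1 (r = 0.993), and Nos1 to Creb3l2 (r = 0.991), Ano6 (r = 0.986) and Pik3cd (r = 0.986). Gchfr, the gene that fell, was nearest to Morn2 (r = 0.975), Mrpl14 (r = 0.958) and Chrd (r = 0.954). An r of at least 0.95 was reached by 356 genes for Gch1, 348 for Spr, 521 for Qdpr, 96 for Pts and 80 for Nos1, and by 3 for Gchfr. Morn2 showed the same course as Gchfr, with means of 4.10 FPKM in sham, 2.88 FPKM in SNI and 4.31 FPKM in SNI + G15.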

How the data were processed

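Total RNA of DRG tissue from 9 libraries in 3 groups of 3 was sequenced as paired reads. The authors deposited a gene table and a transcript table, each with FPKM and estimated counts per library. In the deposited table gene FPKM is the sum of the FPKM of its transcripts, per the study's methods. The estimated counts deposited by the authors carry no normalization and can hold decimals, and they were rounded to whole numbers here. The aligner, counter and rat annotation are not given in the sources used here, and the mouse builds are from the submitters' processing notes. Pooled averages and the authors' correlation, box, density and component tables were not used. Columns named control were taken as sham, from the titles.

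Groups were compared in pairs, with 6 libraries in each fit, by edgeR 4.0.16 (quasi-likelihood test, TMM factors, R 4.3.3) over genes or transcripts with FPKM of at least 1 in at least 1 library. Calls were made at a Benjamini-Hochberg adjusted p below 0.05 over all features tested. The edgeR test gives no standard error. Each SE here is the absolute log2 fold change divided by the square root of the test's F statistic. DESeq2 1.42.0, limma 3.58.1 and other scalings, filters and designs were alternatives. Tested on simulated data for SNI against sham (14305 genes), edgeR recovered 92.0% of 200 genes changed by 1 on the log2 scale, with 6 false calls. The changed genes all stood above a minimum count in sham and all others were left unchanged, whereas 45.7% of genes were called in the data. Counts as low as those of Nos2 and smaller changes were thus not covered. P-values measure only the spread between these libraries, which may be technical. Replicate numbers did not pair the libraries (0 of 9 correlations of deviations were above 0.1), and no libraries were duplicates (r 0.989 to 0.992 within groups).

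The 8 genes and the pathway, marker and motif lists were chosen with earlier results of these data known. All 8 were named. The pathway counts include items that are not reported here by name. Other pathway genes were named if called at 0.5 or more on the log2 scale in either direction, or if the most expressed of their role. Prkg1, Pde5a, Cav1, Dlg4 and Dynll1 were chosen after their values were seen. For each gene called in SNI against sham, the 3 genes of highest r were named. Intervals cover counting error only. FPKM has no depth of its own, and the estimated counts give it. Promoter windows are from RefSeq (GRCr8).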

Additional observations from a re-analysis of the deposited data

How the results depend on the processing

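Of 147 counts and ratios recomputed under alternatives, 134 were classed as the same, a class that let a count shift by some genes. In SNI against sham, 6 of the 7 genes past the filter were called as reported, and the count was 5 to 7 under the alternatives. A count of 7 came from the fit without sham replicate 1. It also came from the fits with no filter or with filterByExpr, which took in Nos2 as well. The pathway count was 15 as reported and 13 to 17 in SNI against sham. In SNI + G15 against sham it was 17 as reported and 14 to 20. Of 379 fold changes of the 8 genes, 355 kept their direction and side of the threshold. Gchfr carried most of the exceptions. Its log2 fold change in SNI + G15 against sham, -0.00037 as reported, became 0.0051 with DESeq2 or RLE factors, 0.04 with limma-trend at either pseudocount (0.0369 and 0.0405) or library totals alone (0.0406), and 0.0133 with upper-quartile factors. It was 0.0137 with all 9 libraries and 0.0010 with the replicate block. Leaving out 1 library gave -0.0638 to 0.0608 (0.0047 without sham replicate 3, 0.0474 and 0.0157 without SNI + G15 replicates 1 and 3). For SNI + G15 against SNI the count called of the 7 genes past the filter was 0 as reported and 1 (Gchfr) with limma-trend at either pseudocount or with all 9 libraries, and 0 to 1 with 1 library left out. The replicate block left 2 pathway genes called in SNI + G15 against SNI, where 6 were called without it, and leaving out 1 library gave 2 to 7. Over all genes the block left 1292 called there, where 2179 were called without it, and leaving out 1 library gave 893 to 2333. Pairing by replicate number was not borne out by the libraries. With the block, SNI against sham had 0 transcripts of the 8 genes called and SNI + G15 against sham had 1, where 4 and 3 were called without it. Over all transcripts the block left 647 and 400 called, where 2671 and 2698 were called without it. DESeq2 called 1 transcript in SNI + G15 against SNI and 6 in SNI + G15 against sham, and all 9 libraries gave 5 for the latter. DESeq2 called 2221 of all transcripts in SNI + G15 against SNI and edgeR 172. In SNI + G15 against sham DESeq2 called 5608 of all transcripts and the fit with all 9 libraries 3830. With a pseudocount of 1 the Gch1 value in SNI against sham was 2.15, since the added amount exceeds the sham level. For Nos2, DESeq2 gave no adjusted p in SNI + G15 against SNI, and the filterByExpr filter removed the gene in SNI + G15 against sham. The causes of the other differences were not tested. Depth limits Nos2, with at most 3 counts per sham library, and Gch1 in sham.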
